A study of Homo sapiens with 10 samples.

Results

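The nuclear genes that encode subunits of respiratory complexes II, III, IV and V were followed in HES9, by its labels a line of human embryonic stem cells. They were taken from the deposited counts as the rows with a protein-coding GENCODE symbol of SDHA, SDHB, SDHC, SDHD or CYC1, or a symbol that starts with UQCR, COX4I, COX5, COX6, COX7, COX8, ATP5F, ATP5M or ATP5P. This gave 50 of the 55841 counted genes, 4 in complex II, 10 in complex III, 17 in complex IV and 19 in complex V. Of these, 46 had enough counts to be tested among 23552 tested genes. The 5 general libraries were made from the nonsorted population, and the 5 HHH libraries from cells sorted for the highest EPCAM, GCTM2 and CD9 surface signal. All cells grew in mTESR1 on matrigel. Batch 1 held 2 libraries of each population and batch 2 held 3 of each. The study's text names the line of its transcriptome work WA09, and the design text mentions protein kinase C inhibitors, which no label of these libraries carries. Neither point was resolved here.

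Complexes II to IV pass electrons from succinate and ubiquinol to oxygen by way of cytochrome c, and complexes III and IV pump protons while they do so. Complex V, the ATP synthase, lets the protons flow back through its membrane ring and makes ATP in its F1 head. Complex II is encoded wholly in the nucleus, whereas complexes III, IV and V each also need subunits that are encoded and made inside the mitochondrion. Pluripotent stem cells in culture are known for a strong use of glycolysis, while they keep a working respiratory chain.

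Library totals ran from 47242595 to 78503395 counts, and the labels do not say whether libraries of a group came from separate cultures, so that p-values measure the spread between these samples only. The 9 pluripotency genes examined (among them POU5F1, NANOG and SOX2) exceeded 1 CPM (counts scaled to library size) on average in all 4 groups, while the 5 mesoderm genes summed to between 0.549 and 1.16 CPM and the 5 endoderm genes to between 0.0354 and 1.76 CPM. The 5 fibroblast genes, 3 of them over 1 CPM in every group, summed to 260 to 342 CPM, and the 5 trophoblast and amnion genes, 1 of them over 1 CPM, to 3.46 to 10.5 CPM. Most of the fibroblast sum was THY1 and COL1A2. THY1 averaged 141 CPM in general and 217 CPM in HHH. COL1A2 and COL1A1 went the other way, at 105 against 86.5 CPM and 24.2 against 12.8 CPM. COL3A1 and DCN had at most 8 counts in a library. In batch 2 the sort antigen genes EPCAM and CD9 summed to 169 to 188 CPM in general and 233 to 259.7 CPM in HHH, and the 7 neural genes to 229.5 to 274 and 128 to 189 CPM. In batch 1 these sums were 276 to 288 against 292 to 362 CPM and 192 to 224 against 229 to 246 CPM. Of the sort antigen genes only EPCAM was higher in HHH in batch 1, at 187 against 238 CPM on average. CD9 averaged 95.4 CPM in general and 89.1 CPM in HHH there, and the populations overlapped. In batch 2 both genes were higher in every HHH library than in any general one. The neural sums were nearly all NES, which averaged 202 and 236 CPM in general and HHH in batch 1 and 236 and 164 CPM in batch 2. LHX5 was lower in HHH in both batches, at 3.98 against 0.215 CPM (adjusted p = 0.000497) and at 8.71 against 0.0988 CPM on average, and 3 of the 7 neural genes were over 1 CPM in general and 1 in HHH in each batch. The part of other cell types in the results below was not tested. The library HHH batch 2 replicate 3 lay above the others in the subunit genes. Dixon's outlier test on the medians of the HHH libraries did not set it apart (0.577 against a critical value of 0.71). Its tested subunit genes lay at a median of 0.51 on the log2 scale above the mean of the general libraries of its batch, against 0.15 in each of the other HHH libraries of batch 2, 0.04 and −0.11 in the HHH libraries of batch 1, and −0.06 to 0.08 in the 5 general libraries. The median of all tested genes in HHH batch 2 replicate 3 was −0.003 on the same scale. The calls and the group medians and counts within batch 2 are given with and without this library below.

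**Figure D1:**
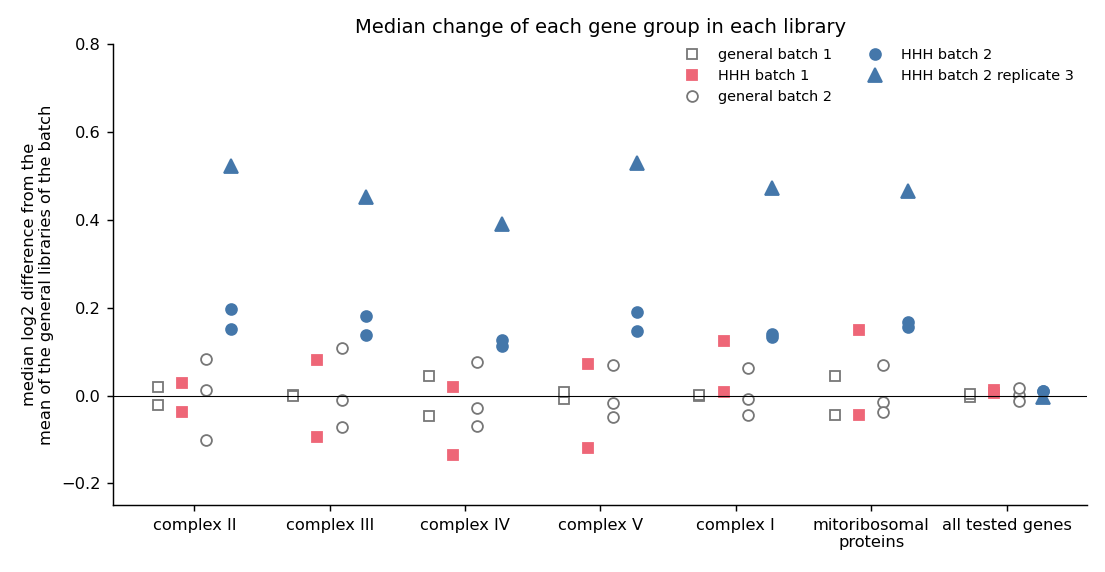
Each point is 1 library and gives the median, over the tested genes of the group named on the horizontal axis, of the log2 difference from the mean of the general libraries of the same batch. HHH batch 2 replicate 3 (triangle) lies at 0.39 to 0.53 in complexes II to V, the other HHH libraries of batch 2 lie at 0.11 to 0.20, and all tested genes lie near 0 in every library.

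Of the tested subunit genes 43 averaged over 10 CPM in the general libraries, and COX6B2, COX7A1 and ATP5MGL did not. Levels were ordered by the deposited log2 RPKM values, which are per kilobase. From these values the authors had already subtracted a difference between the batches. In complex II, SDHD, a membrane anchor, had the highest level (5.09 log2 RPKM over the 10 libraries) and SDHA, the flavoprotein that oxidises succinate, the lowest (2.87). In complex III the highest was UQCRHL at 7.66, a gene nearly identical to the hinge protein gene UQCRH (6.85), so that reads of the pair may be split between them, and the lowest was UQCRB (3.38). The complex IV range ran from COX8A (7.82) to COX7A1 (−2.02), and that of complex V from ATP5F1B (8.65), the catalytic beta subunit, to ATP5MGL (−1.73). The gene length implied by the deposited RPKM was more than 1.5 times off the GENCODE 44 exonic length in 6 members, UQCRHL among them, whose 7.66 rests on an implied length of 523 bases. The low values of SDHA and UQCRB rest on implied lengths of 8660 and 9840 bases. By mean CPM in the general libraries SDHA (63.4) lay above SDHB (42.2) and SDHC (34.1) and below SDHD (69.0). UQCRB (99.7) lay above UQCR10 (55.6) and UQCR11 (50.6) and below UQCRH (153). The order per kilobase is thus not an order of counts.

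**Figure D2:**
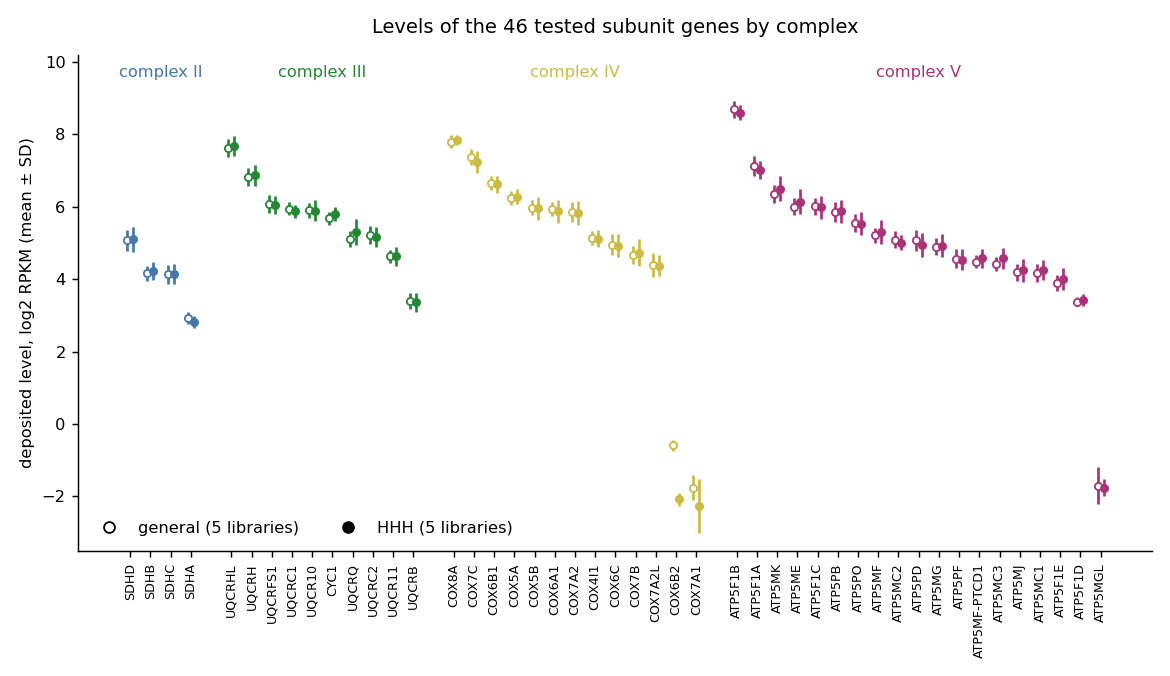
Mean deposited log2 RPKM with SD for each tested subunit gene, in the 5 general (open) and the 5 HHH (filled) libraries, ordered by level within each complex. COX6B2, COX7A1 and ATP5MGL lie below 0 while every other gene lies at or above 2.81, and COX6B2 is the gene whose open and filled points stand farthest apart.

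Counts were concentrated in a few genes. ATP5F1A and ATP5F1B, the alpha and beta subunits of the F1 head, made up 49.6% to 57% of the summed CPM of complex V, and COX7C 21.1% to 25.9% of that of complex IV. All members together took 0.572% to 0.608% of the counts in 9 of the libraries and 0.700% in HHH batch 2 replicate 3. Levels differed between the batches too. In the general population 40 of the 46 genes had a higher mean CPM in batch 1 than in batch 2, with a median log2 difference of 0.44, and the summed CPM of complex V was 3928 ± 128 (SD, 2 general libraries) in batch 1 against 2880 ± 196 (SD, 3 general libraries) in batch 2. For this reason HHH was compared with general inside each batch, and across batches only with batch as a term.

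With batch as a term, COX6B2 was the 1 subunit gene of 46 that passed an adjusted p under 0.05 (edgeR's quasi-likelihood test, Benjamini-Hochberg over all tested genes), where 5.83% of all tested genes were called. It also passed a fold change of 1.5, as did 2.98% of all tested genes. COX6B2 (ENSG00000160471) encodes the testis form of the complex IV subunit 6B, and COX6B1 the form found in most tissues. COX6B2 stood at 1.36 and 1.19 CPM in the general libraries of batch 1 and at 0.600 and 0.824 CPM in the HHH libraries, from 89 and 71 against 28 and 36 counts. In batch 2 it stood at 4.38, 3.86 and 5.05 CPM in general and at 1.44, 1.45 and 1.26 CPM in HHH, from 220 to 303 counts against 71 to 84. Every HHH library was thus below every general library of its batch, and the general level itself was higher in batch 2 than in batch 1. The log2 fold change was −1.41 (SE 0.17, adjusted p = 0.000178), a 2.66-fold lower level. In bulk RNA, fewer cells that express a gene and less of its RNA per cell cannot be told apart.

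Within the batches the log2 fold change of COX6B2 was −1.68 in batch 2 (SE 0.17, adjusted p = 2.33e-05) and −0.85 in batch 1 (SE 0.24, adjusted p = 0.0886), which missed the threshold. The difference between the batches was −0.83 (SE 0.30, adjusted p = 0.170) and was not called. Without HHH batch 2 replicate 3 the gene stayed called in the fit with batch as a term and within batch 2. Without the batch term the fold change was −1.50 and the adjusted p 0.186. COX6B1 differed little. Its mean was 98.9 CPM ± 4.54 in general and 98.8 ± 1.98 in HHH in batch 1 (SD, n = 2 each). In batch 2 it was 85.4 ± 2.60 against 96.9 ± 11.7 (SD, n = 3 each). Across batches the difference was 0.11 on the log2 scale (SE 0.08, adjusted p = 0.442). In batch 2 COX6B2 amounted to 4.4% to 5.90% of the CPM of COX6B1 in the general libraries and to 1.14% to 1.62% in the HHH libraries. In batch 1 it amounted to 1.34% and 1.24% in the general libraries and to 0.599% and 0.846% in the HHH libraries. Of the exonic bases of COX6B2, 29.1% are shared with another counted gene, ENSG00000267706, which was lower too (log2 fold change −1.69, SE 0.25, adjusted p = 0.000802). Which of the genes the shared reads came from was not tested.

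The promoters of COX6B1 and COX6B2 are shown because they belong to the little-changed and the lowered form of the same subunit. Each run is 300 bases of RefSeq sequence on the gene's strand, 5′ to 3′ and reaches from upstream of the start to just past it. Capitals mark a match to any of 3 motifs of factors that are known for their part in respiratory gene expression, searched on both strands as GCGCATGC (NRF1), CCGGAAG (ETS factors such as GABPA) and AAGATGGCG (YY1). COX6B1 lies on chr19:35648073-35648372 and COX6B2 on chr19:55354670-55354969 (GRCh38.p14, plus strand and minus strand).
COX6B1: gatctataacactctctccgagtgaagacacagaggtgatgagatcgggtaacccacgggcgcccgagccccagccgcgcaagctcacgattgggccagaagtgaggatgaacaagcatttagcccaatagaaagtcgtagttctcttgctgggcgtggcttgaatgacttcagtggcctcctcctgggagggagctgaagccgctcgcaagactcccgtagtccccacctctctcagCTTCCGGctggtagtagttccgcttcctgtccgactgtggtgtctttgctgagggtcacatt
COX6B2: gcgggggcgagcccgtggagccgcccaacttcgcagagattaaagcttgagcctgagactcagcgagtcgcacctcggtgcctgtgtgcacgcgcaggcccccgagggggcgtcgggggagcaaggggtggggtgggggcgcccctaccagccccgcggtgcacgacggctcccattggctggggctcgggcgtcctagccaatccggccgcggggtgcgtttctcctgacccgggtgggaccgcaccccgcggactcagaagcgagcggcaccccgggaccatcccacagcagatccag
COX6B1 held 1 match, to the ETS motif on the opposite strand, and COX6B2 held none. The COX6B2 window was the richer in G and C, with 72.0% against 56.7%, and in CG pairs, with 31 against 16. A match is only a run of letters and says nothing of binding, and its lack says as little.

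Apart from COX6B2 the additive comparison gave small differences of nearly uniform sign. Of the 46 genes 43 had a positive log2 fold change in the counts, with a median of 0.14, while in the deposited log2 values 22 did, with a median of −0.01. On the deposited scale the median of all tested genes was itself −0.12, where in the counts it was 0.02, and 0.04 for tested genes of at least 10 CPM. In the counts 53.0% of all tested genes and 59.7% of those of at least 10 CPM were positive. The median was 0.17 in complex II, 0.15 in complex III, 0.12 in complex IV and 0.17 in complex V, and every tested gene of complexes II, III and V was on the positive side. At an unadjusted p under 0.05 there were 13 of 46, or 28.3%, where all tested genes gave 20.9%. The highest log2 fold change was 0.35 for UQCRQ (SE 0.12, adjusted p = 0.0929), a small subunit of complex III, followed by 0.30 for ATP5MC3 (SE 0.09, adjusted p = 0.0777). The lowest adjusted p after that of COX6B2 was 0.0752, for CYC1 (0.25, SE 0.08), the cytochrome c1 of complex III. With a replicate block, which pairs libraries of the same number, 2 members were called, COX6B2 and UQCRQ, the latter higher. For this setting and the next the share of all tested genes called is not given here. Without HHH batch 1 replicate 3 there were 5 calls (ATP5MC3, ATP5MK, CYC1 and UQCRQ higher, COX6B2 lower). Without HHH batch 2 replicate 3 the median was 0.06, with 40 of 46 positive and COX6B2 the only call.

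The batches differed in this respect. Within batch 1 the median log2 fold change of the subunit genes was −0.02, with 17 of 46 positive, whereas within batch 2 it was 0.26, with 43 of 46 positive, or 0.14 with 42 of 46 positive without HHH batch 2 replicate 3. Over all tested genes the medians were 0.007 and 0.004. There were 27 genes lower in batch 1 and higher in batch 2, 16 higher in both, 2 lower in both (COX6B2 and COX7A1) and 1, ATP5F1D, higher in batch 1 and lower in batch 2. These counts were 26, 16, 3 and 1 without HHH batch 2 replicate 3. The direction in batch 1 rested on single libraries, since 31 of 46 were positive without HHH batch 1 replicate 3 and 13 without HHH batch 1 replicate 2. With scaling by library size only 26 were positive. With the replicate block 35 were, but only replicate 2 of batch 1 has both populations. Within batch 1 that fit thus set 1 general against 1 HHH library. The median of the differences between the batches was 0.28, with 44 of 46 larger in batch 2, and without HHH batch 2 replicate 3 it was 0.15.

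**Figure D3:**
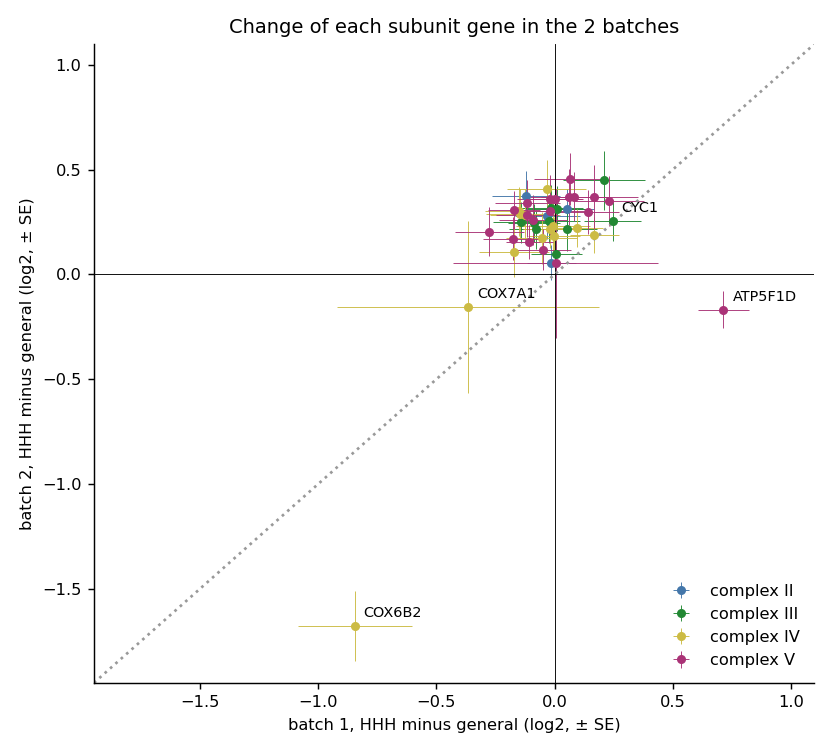
Each point is a tested subunit gene, with its log2 fold change of HHH against general in batch 1 on the horizontal and in batch 2 on the vertical axis, bars giving the SE and the dotted line equality. Most genes lie near 0 in batch 1 and reach up to 0.46 in batch 2, COX6B2 lies low in both, and ATP5F1D lies to the right of and below the rest.

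Within batch 1, 1 member was called, ATP5F1D, where 2.14% of all tested genes were called. ATP5F1D (ENSG00000099624) encodes the delta subunit of the central stalk of the ATP synthase. It stood at 19.9 CPM in both general libraries of batch 1 and at 35.6 and 29.6 CPM in the HHH libraries. This was 0.71 on the log2 scale (SE 0.11, adjusted p = 0.00278), or 1.64-fold. In batch 2 the order was the opposite, with 22.8, 24.5 and 24.4 CPM in general and 21.2, 20.7 and 21.8 CPM in HHH (−0.17 on the log2 scale, SE 0.09, adjusted p = 0.229). The populations overlapped in neither batch. ATP5F1D was also the only member whose change differed between the batches, by −0.88 (SE 0.14, adjusted p = 0.0142), where 0.777% of all tested genes were called. With batch 1 fitted alone the adjusted p within it was 0.0672. After removal of a GC trend from each library the difference between the batches was −0.50 with an adjusted p of 0.258, and without general batch 1 replicate 1 or general batch 2 replicate 3 the adjusted p was 0.0721 or 0.0521. The exons of ATP5F1D hold 63.9% G and C, and among 1107 protein-coding genes above 60% with at least 10 CPM the median log2 fold change was 0.17 in batch 1 and −0.15 in batch 2.

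Within batch 2, 5 members were called, 4 higher and 1 (COX6B2) lower, where 9.47% of all tested genes were called, 3.83% of them as higher in HHH. The 4 members called higher were 8.7% of the 46. With the replicate block 13 members were called, 12 of them higher, and without HHH batch 2 replicate 3 only COX6B2 was, where 1.27% of all tested genes were then called higher. The 9.47% and 3.83% belong to the fit without the block. The share of all tested genes called with the block is not given here, so that the 13 have no background beside them. The block kept the 5 calls and added ATP5F1E, ATP5ME, ATP5MF, ATP5MF-PTCD1, ATP5MJ, COX7B, SDHD and UQCRQ.

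SDHB (ENSG00000117118), the iron-sulfur subunit of complex II, stood at 39.4, 39.2 and 38.0 CPM in general and at 43.8, 45.3 and 55.8 CPM in HHH in batch 2. The log2 fold change was 0.31 (SE 0.09, adjusted p = 0.0475). In batch 1 it stood at 47.2 and 47.3 against 50.4 and 47.5 CPM, with a log2 fold change of 0.05 (SE 0.11). ATP5MC1 (ENSG00000159199), a gene for the c subunit of the proton-driven ring, stood at 36.4, 39.4 and 35.3 CPM in general and 43.7, 44.1 and 54.7 CPM in HHH in batch 2. Its log2 fold change was 0.36 (SE 0.09, adjusted p = 0.0308). The batch 1 values were 58.7 and 56.2 against 58.6 and 56.5 CPM, and nothing separated the populations there.

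ATP5MK (ENSG00000173915), a small subunit of the membrane part of the ATP synthase, stood at 56.0, 58.4 and 52.8 CPM in general and 66.1, 69.7 and 93.4 CPM in HHH in batch 2. This was the highest log2 fold change of all members in that batch, 0.46 (SE 0.12, adjusted p = 0.0368). In batch 1 the populations overlapped, at 89.3 and 95.1 against 108 and 84.8 CPM. ATP5PF (ENSG00000154723), coupling factor 6 of the peripheral stalk, stood at 39.9, 41.0 and 38.5 CPM in general and at 45.8, 45.3 and 56.5 CPM in HHH in batch 2. Its log2 fold change there was 0.31 (SE 0.09, adjusted p = 0.0488). In batch 1 it was lower in both HHH libraries, at 51.2 and 49.7 against 56.5 and 57.2 CPM (log2 fold change −0.17, SE 0.11, adjusted p = 0.464), and 37.3% of its exonic bases are shared with other counted genes.

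In these 4 genes every HHH library of batch 2 lay above every general one, and replicate 3 was the highest of the HHH libraries each time. Without that library the log2 fold changes were 0.19 for SDHB (adjusted p = 0.162), 0.24 for ATP5MC1 (0.107), 0.28 for ATP5MK (0.152) and 0.19 for ATP5PF (0.163), and none was called. Leaving out general batch 2 replicate 1 or replicate 3 ended the same 4 calls as well. With GC and exonic length trends removed from each library (a setting added with the results in view) 5 members were again called, but SDHB and ATP5MK gave way to CYC1 and ATP5MF-PTCD1, with log2 fold changes of 0.19 (adjusted p = 0.116) for SDHB and 0.33 (adjusted p = 0.0562) for ATP5MK.

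**Figure D4:**
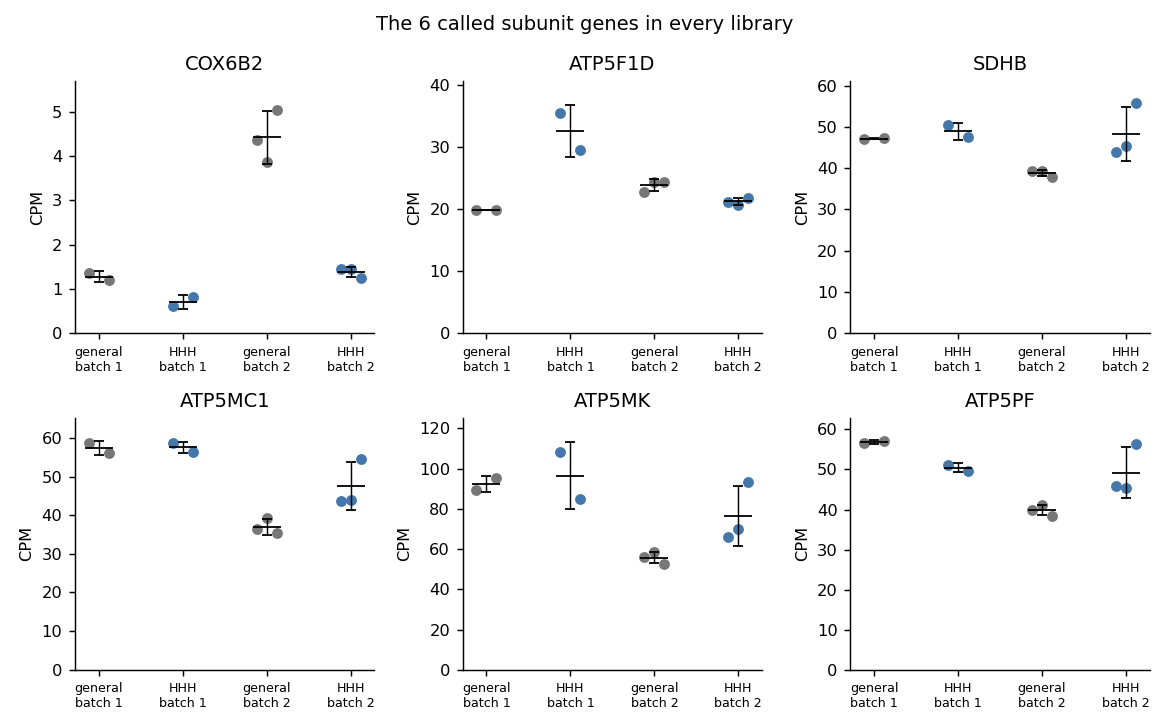
CPM of the 6 genes called in any comparison, 1 point per library, with the mean and SD of each population and batch (bars). COX6B2 is lower in HHH in both batches, ATP5F1D is higher in HHH in batch 1 and lower in batch 2, and the other 4 are higher in HHH in batch 2, each with 1 library above the rest.

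The promoters of 3 of these genes are shown because they hold matches to the searched motifs, again as 300 bases with matches in capitals. SDHB lies on chr1:17053983-17054282, ATP5MK on chr10:103396426-103396725 and ATP5PF on chr21:25735005-25735304, all GRCh38.p14 and minus strand.
SDHB: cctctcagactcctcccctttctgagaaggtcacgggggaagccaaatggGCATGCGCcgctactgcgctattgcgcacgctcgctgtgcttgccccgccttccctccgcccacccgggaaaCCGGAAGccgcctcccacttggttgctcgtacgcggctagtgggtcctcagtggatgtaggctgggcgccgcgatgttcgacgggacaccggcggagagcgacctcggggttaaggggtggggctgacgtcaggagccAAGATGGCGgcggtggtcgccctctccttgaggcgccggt
ATP5MK: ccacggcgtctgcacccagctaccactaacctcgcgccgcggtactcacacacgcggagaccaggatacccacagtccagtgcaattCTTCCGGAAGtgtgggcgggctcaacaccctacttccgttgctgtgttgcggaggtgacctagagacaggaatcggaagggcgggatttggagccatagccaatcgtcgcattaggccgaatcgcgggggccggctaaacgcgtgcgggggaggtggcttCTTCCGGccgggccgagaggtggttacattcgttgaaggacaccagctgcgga
ATP5PF: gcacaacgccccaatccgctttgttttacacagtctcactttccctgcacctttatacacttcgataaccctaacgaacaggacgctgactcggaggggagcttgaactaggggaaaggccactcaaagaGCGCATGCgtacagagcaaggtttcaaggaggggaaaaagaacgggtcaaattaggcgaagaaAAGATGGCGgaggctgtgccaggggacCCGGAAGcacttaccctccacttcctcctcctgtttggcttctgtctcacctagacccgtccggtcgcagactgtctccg
SDHB and ATP5PF each held 1 match to the NRF1, the ETS and the YY1 motif, and ATP5MK held 3 matches to the ETS motif, of which the first 2 overlap on opposite strands. ATP5MC1 held no match. Of the 37 members with a promoter in the table, 15 (40.5%) held the ETS motif, 8 (21.6%) the NRF1 motif and 3 (8.11%) the YY1 motif, where 10.7%, 3.27% and 1.85% of 27305 promoters of the same length did. Members with a match were spread over all 4 complexes for the ETS motif, and none of the 7 complex III promoters held the NRF1 motif. The NRF1 letters and their reverse complement overlap where the longer palindrome occurs, and the ETS and YY1 letters share bases where they abut. Of all promoters 14.6% held any of the 3 motifs and of the members' promoters 48.6%. The members' promoters were also richer in CG pairs, with a median of 21 against 14, and in G and C, with 61.0% against 58.3%. Each of the 3 motifs contains a CG pair, and promoters of like CG content were not compared.

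In complex II all 4 genes were tested. SDHA, with 55.4 to 70.7 CPM over the 10 libraries, was the steadiest (log2 fold change 0.03 with batch as a term, SE 0.07). It stood at 66.7, 66.3 and 62.7 against 70.7, 69.0 and 63.7 CPM in batch 2 and at 61.6 and 59.7 against 55.4 and 64.8 CPM in batch 1. SDHC, the other membrane anchor, stood at 24.2, 28.0 and 22.3 CPM in general and 27.0, 27.8 and 35.6 CPM in HHH in batch 2, and at 49.2 and 46.9 against 48.7 and 45.3 CPM in batch 1. SDHD stood at 54.0, 59.5 and 48.6 against 63.5, 64.6 and 82.3 CPM in batch 2 (0.38 on the log2 scale, SE 0.12, adjusted p = 0.0576, which missed the threshold), and at 92.7 and 90.3 against 93.8 and 74.4 CPM in batch 1. The batch 2 populations did not overlap for SDHB and SDHD and overlapped for SDHA and SDHC.

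All 10 complex III genes were tested and none was called in any of the 4 comparisons. Their log2 fold changes within batch 2 ran from 0.10 (UQCRC1) to 0.45 (UQCRQ) and within batch 1 from −0.14 (UQCRC2) to 0.25 (CYC1). UQCRQ stood at 38.9, 36.9 and 35.4 CPM in general and 44.8, 43.5 and 63.5 CPM in HHH in batch 2, and at 63.2 and 70.6 against 89.8 and 64.8 CPM in batch 1, where the populations overlapped. CYC1 had nearly the same value in both batches. It stood at 112 and 121 against 148 and 129 CPM in batch 1 and at 76.5, 92.6 and 80.8 against 92.5, 96.6 and 109 CPM in batch 2, with log2 fold changes of 0.25 (SE 0.12) and 0.26 (SE 0.10). The core proteins UQCRC1 and UQCRC2, which hold the complex together on the matrix side, gave 160.2, 189.5 and 166 against 176, 181 and 194 CPM and 158, 172 and 152 against 174, 182 and 216 CPM in batch 2. UQCRH stood at 122, 133 and 112 against 141, 139 and 178 CPM in batch 2 and at 204 and 194 against 212 and 182 CPM in batch 1. The near copy UQCRHL stood at 85.1, 96.2 and 80.9 against 100.5, 98.9 and 126 CPM and at 118 and 111 against 123 and 108 CPM. The pair had much the same differences, with log2 fold changes in batch 2 of 0.32 and 0.31 and in batch 1 of −0.01 and 0.01. UQCRB stood at 102, 98.2 and 91.3 against 104, 106 and 129 CPM in batch 2 and below both general libraries in batch 1. UQCRFS1, the Rieske iron-sulfur protein, had log2 fold changes of 0.25 in batch 2 and −0.09 in batch 1, and the small subunits UQCR10 and UQCR11 gave 0.26 and 0.22 in batch 2.

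In complex IV, which reduces oxygen to water, 13 of 17 genes were tested. The other 4 are tissue isoforms that were close to absent: COX4I2, COX6A2 and COX7B2 had 0 to 4 counts and COX8C 0 to 6 counts in each library, so that a level was not measurable at this depth, where 3 counts stand for 0.0460 to 0.0687 CPM. Their partners COX4I1, COX6A1, COX7B and COX8A stood at 143.8 to 199.8, 67.3 to 98.4, 63.0 to 112 and 85.9 to 149 CPM. COX4I1 and COX8A lay higher in every HHH library of batch 2 than in any general one, with log2 fold changes of 0.22 (SE 0.09) and 0.19 (SE 0.08), and COX8A did so in batch 1 too (0.17, SE 0.10). COX8A stood at 127 and 129 against 138 and 149 CPM in batch 1 and at 91.0, 102 and 85.9 against 106, 106 and 106 CPM in batch 2. COX7A1, the muscle form of subunit 7A, stood at 0.124 to 0.412 CPM and did not separate the populations (log2 fold change −0.23, SE 0.32), whereas COX7A2, the form of most tissues, stood at 85.8, 92.5 and 78.2 against 90.9, 94.2 and 127 CPM in batch 2. COX7A2L, a factor of supercomplex assembly, stood at 71.4, 91.7 and 69.0 against 87.9, 91.5 and 106 CPM.

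COX7B had the highest additive value of complex IV, 0.23 (SE 0.12, adjusted p = 0.297), from 63.0, 64.3 and 65.5 against 72.5, 71.9 and 112 CPM in batch 2 and 87.6 and 87.2 against 91.3 and 79.6 CPM in batch 1. COX7C, the most counted gene of the complex, stood at 289, 305 and 274 against 279, 277 and 379 CPM in batch 2, so that a single HHH library lay above the general ones, and at 379 and 346 against 345 and 298 CPM in batch 1. In COX5A, a matrix-side subunit, all 5 HHH libraries lay above the general mean of their batch (log2 fold change 0.17, SE 0.07, adjusted p = 0.202). COX5B, COX6A1 and COX6C had additive values of 0.14, 0.08 and 0.11, with HHH batch 2 replicate 3 again the highest library of batch 2.

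All 19 genes of complex V were tested. In the F1 head, ATP5F1A and ATP5F1B had log2 fold changes of 0.17 (SE 0.10) and 0.12 (SE 0.10) in batch 2 and −0.18 and −0.05 in batch 1. ATP5F1B, the most abundant member, stood at 1089 and 1019 against 1071 and 965 CPM in batch 1 and at 762, 873 and 727 against 826, 850 and 886 CPM in batch 2. ATP5F1C and ATP5F1E, the gamma and epsilon subunits that turn with the ring, gave 0.28 (SE 0.11, adjusted p = 0.104) and 0.37 (SE 0.12, adjusted p = 0.0602) in batch 2. ATP5F1D, the delta subunit beside them, was the exception described above.

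The 3 genes ATP5MC1, ATP5MC2 and ATP5MC3 make the same mature c subunit. ATP5MC2 stood at 121, 128 and 115 against 133, 129.7 and 142 CPM in batch 2 and at 152 and 139 against 136 and 134 CPM in batch 1, a log2 fold change of 0.05 (SE 0.07) with batch as a term. ATP5MC3 stood at 125, 124 and 115 against 144, 138 and 183 CPM in batch 2 and at 158 and 169 against 217 and 166 CPM in batch 1, and had the highest additive value of complex V, 0.30. Peripheral stalk genes ran from 0.20 (ATP5PD) to 0.34 (ATP5PB) in batch 2. ATP5PD, which had the lowest additive value of complex V (0.01, SE 0.11), stood at 124 and 99.8 against 94.7 and 89.7 CPM in batch 1 and at 98.3, 109 and 99.0 against 104, 107 and 142 CPM in batch 2. The small membrane subunits ATP5ME, ATP5MF, ATP5MG and ATP5MJ gave 0.37, 0.37, 0.30 and 0.36 in batch 2, and ATP5MF-PTCD1, a readthrough gene that shares 93.4% of its exonic bases with others, gave 0.30. ATP5MGL, at 0.121 to 0.300 CPM, did not separate the populations (log2 fold change 0.03, SE 0.27).

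Over all complexes, 25 members had every HHH library of batch 2 above every general one, where 18.1% of all tested genes did, and 2 had the reverse order, where 18.2% did. Without HHH batch 2 replicate 3 the counts were 26 above (22.6% of all tested genes) and 2 below (21.4%). In batch 1 the counts were 5 above (22.5% of all tested genes) and 8 below (21%). By complex, the batch 2 count above was 2 of 4 in complex II, 7 of 10 in complex III, 5 of 13 in complex IV and 11 of 19 in complex V with that library, and differed without it only in complex II, with 3 of 4. In 10 members all 5 HHH libraries lay above the general mean of their batch. The share of all tested genes with that order was not taken, so that this count has no background beside it.

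Exonic length and GC content moved with these values. The members tested were short, with a median exonic length of 2377 bases against 5740 in 9483 protein-coding genes of at least 10 CPM, and their median GC content was 47.1% against 47.0%. Among those 9483 genes, the ones up to 1500 bases lay at a median log2 difference of 0.37 above the general mean in HHH batch 2 replicate 3 and those over 9000 bases at −0.09, and the other HHH libraries of batch 2 had 0.10 and 0.14 for the short and 0.03 and −0.02 for the long genes. By GC content the libraries of the batches sloped in opposite ways, from −0.09 up to 40% to 0.17 over 60% in the batch 1 fold changes, and from 0.16 to −0.15 in batch 2. With both trends removed the median of the members in batch 2 was 0.19 in place of 0.26, with 40 of 46 positive, and 0.10 with 41 of 46 positive when HHH batch 2 replicate 3 was left out as well, with all tested genes at 0.002 and 0.008. By complex the last fit gave 0.13 in complexes II and III, 0.05 in complex IV and 0.10 in complex V.

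**Figure D5:**
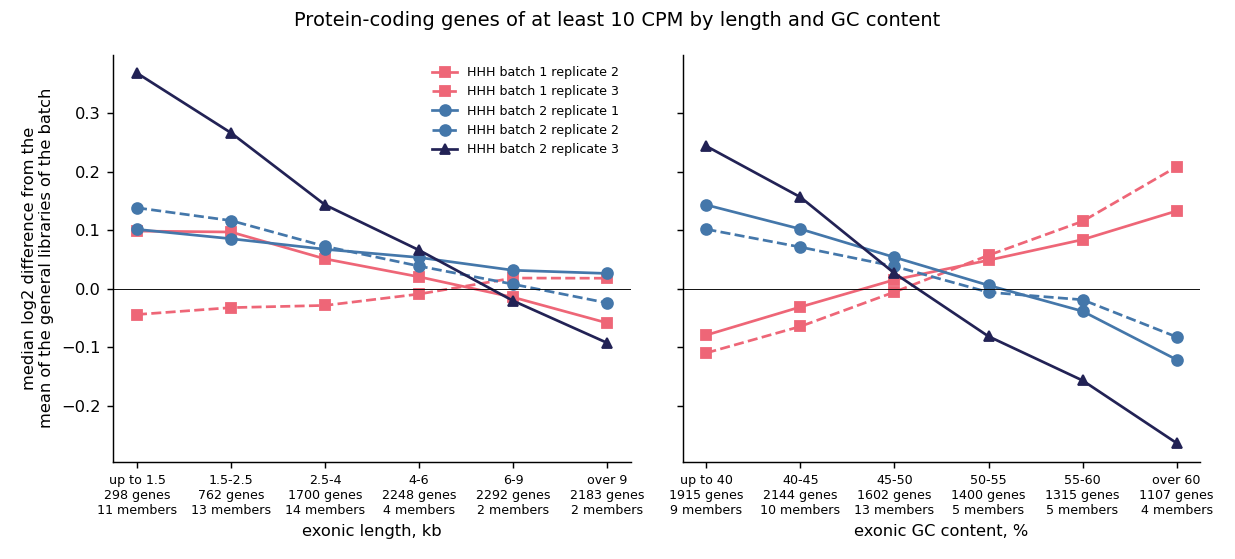
Median log2 difference of each HHH library from the general mean of its batch, over protein-coding genes of at least 10 CPM, by exonic length (left) and exonic GC content (right), with the number of genes and of tested members in each class. Short genes rise to 0.37 in HHH batch 2 replicate 3, and the GC slopes of batch 1 (squares) and batch 2 (circles and triangles) run in opposite directions.

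Genes that build or serve the complexes were read from the fit with batch as a term, in which 5.83% of all tested genes were called. Of 47 assembly factors and cytochrome c, 1 was called, higher, with a median log2 fold change of 0.15, and of 15 regulators of mitochondrial biogenesis none was (3 at an unadjusted p under 0.05, and with DESeq2 1, ESRRA), with a median of 0.06. The called gene was COX17, the copper chaperone of complex IV, at 13.3 and 15.3 against 19.9 and 15.96 CPM in batch 1 and 13.8, 11.7 and 11.7 against 14.96, 14.99 and 18.95 CPM in batch 2. Its log2 fold change was 0.37 (SE 0.10, adjusted p = 0.0426). With the replicate block there were 3 calls (COX17, TACO1 and TFB2M), and leaving out any single library other than general batch 1 replicate 2 or HHH batch 1 replicate 3 ended the call of COX17, without HHH batch 2 replicate 3 leaving ESRRA as the 1 call. ATP5IF1, which inhibits the ATP synthase, stood at 55.6 and 60.8 against 78.4 and 58.7 CPM in batch 1 and 54.4, 52.0 and 59.1 against 56.4, 58.6 and 77.4 CPM in batch 2 (log2 fold change 0.23, SE 0.10, adjusted p = 0.215).

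Of the direct regulators, PPARGC1A, a coactivator of mitochondrial genes, was low. It stood at 1.81 and 1.66 against 1.48 and 1.51 CPM in batch 1 and at 1.96, 1.88 and 1.77 against 2.64, 2.80 and 2.49 CPM in batch 2, where it passed the threshold within the batch (log2 fold change 0.50, adjusted p = 0.0435). Leaving out HHH batch 2 replicate 3 gave 0.54 there (adjusted p = 0.0834). With batch as a term PPARGC1A did not pass (0.23, SE 0.15, adjusted p = 0.386). Within batch 2, 2 of the 15 regulators (PPARGC1A and TFB2M) and 7 of the 47 assembly factors and cytochrome c were called, all higher. Of all tested genes 3.83% were called higher there. Without HHH batch 2 replicate 3 none of these regulators and assembly genes stayed called. NRF1 was level, at 25.7 CPM in both general libraries against 24.6 and 25.1 CPM in batch 1 and at 15.3, 15.6 and 15.97 against 16.5, 16.3 and 15.8 CPM in batch 2 (0.01, SE 0.06). TFAM, which packs and transcribes mitochondrial DNA, stood at 178 CPM in both general libraries against 173 and 149 CPM in batch 1 and at 131, 133 and 117 against 148, 146 and 179 CPM in batch 2 (0.13, SE 0.10, adjusted p = 0.482).

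The subunits encoded in the mitochondrion went the other way. All 13 mRNAs had a negative log2 fold change with batch as a term, with a median of −0.36, and 2 were called, MT-ND1 and MT-ND4 of complex I, both lower. In that fit 5.83% of all tested genes were called. MT-ND1 stood at 32.0 and 23.8 against 19.9 and 24.0 CPM in batch 1 and at 19.0, 19.9 and 21.6 against 15.3, 16.1 and 13.1 CPM in batch 2 (log2 fold change −0.41, SE 0.10, adjusted p = 0.0233). MT-ND4 stood at 40.7 and 26.2 against 19.6 and 29.1 CPM in batch 1 and at 35.5, 30.9 and 34.2 against 26.9, 23.3 and 20.9 CPM in batch 2 (−0.48, SE 0.13, adjusted p = 0.0375). Both were lower in every HHH library of batch 2 and overlapped in batch 1. Without HHH batch 2 replicate 3 neither was called (adjusted p = 0.0504 and 0.0827), and the median of the 13 was −0.30. The share of counts from the mitochondrial genome was 0.262% to 0.312% in the HHH libraries of batch 2 and 0.377% to 0.407% in the general ones, and overlapped in batch 1, at 0.234% and 0.334% against 0.267% and 0.398%.

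Nuclear genes of complex I and of the mitochondrial ribosome gave values like those of complexes II to V. With batch as a term the 36 complex I genes had a median of 0.18 with 1 call, NDUFA12 (0.37, SE 0.09, adjusted p = 0.0197), and the 76 mitochondrial ribosomal protein genes a median of 0.18 with 2 calls, MRPS34 (0.34, adjusted p = 0.0130) and MRPL54 (0.36, adjusted p = 0.0440), all higher. In that fit 5.83% of all tested genes were called, a larger share than in either set. NDUFA12 and MRPS34 were still called without HHH batch 2 replicate 3, and MRPL54 was not (adjusted p = 0.0884). Within batch 2 the medians were 0.25 and 0.27 with 5 and 12 called higher, against 0.26 and 4 in complexes II to V. These calls were 13.9%, 15.8% and 8.7% of the genes of each set, where 3.83% of all tested genes were called higher. Without HHH batch 2 replicate 3, in which complex I and the ribosomal genes lay at a median of 0.47 against 0.13 to 0.17 in the other HHH libraries of batch 2, the medians were 0.12 and 0.15, against 0.14, and 1 gene of the 3 sets was called higher, in complex I. Within batch 1 they were 0.06 and 0.05, against −0.02. NDUFA4, named for complex I and now placed in complex IV, had a log2 fold change of 0.37 within batch 2 (adjusted p = 0.0816) and −0.15 within batch 1.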

How the data were processed

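Total RNA of 5 general and 5 HHH samples was sequenced by RNA-seq. The authors deposited raw counts per gene for each library, and a table of log2 RPKM values scaled by TMM. These log2 values are treated here as a score, since the authors had already removed a batch difference from them, so that the batch means were equal to within 9.24e-14 over 27641 genes counted in every library. The submitters' processing notes list GRCh37, CASAVA 1.8.2, R 3.2.2 and limma 3.26.9, while the aligner, counter and annotation were not given in the sources used here. Symbols came from GENCODE 44, which matched 88.5% of the identifiers and all 50 members, and unmatched identifiers took 7.44% to 20.3% of the counts of a library.

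Counts were tested with edgeR 4.0.16 in R 4.3.3 (quasi-likelihood F test, TMM, filterByExpr with a minimum count of 10, two-sided). The fits had batch as a term, or separate population means in each batch for the within-batch comparisons and their difference. Calls needed an adjusted p under 0.05 (Benjamini-Hochberg over 23552 genes). CPM was taken on the TMM-scaled library size. Total counts ran from 47242595 to 78503395, so that 3 counts stood for 0.0460 to 0.0687 CPM, a floor that covers counting error only. The tests were first tried on simulated counts. No library repeated another of its own population and batch beyond sampling noise, with a chi-square per degree of freedom of 6.35 or more for each such pair. Libraries of different populations or batches were not compared in this way.

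The members and lists were chosen with earlier results of these data known. Named genes were the members that passed a test (up to 20 a test), those lowest and highest in level and in fold change in each complex, tissue isoforms and near copies, the 4 SDH genes, up to 6 listed pathway genes that passed the test with batch as a term, and PPARGC1A, NRF1, TFAM and ATP5IF1. Other genes named for their role in the complexes were chosen after their values had been seen. Libraries of the same number in batch 2 deviated together from their group means, with correlations over all tested genes of 0.239, 0.143 and 0.113. A replicate block was therefore fitted as an alternative. In batch 1 the 1 pair that shares a number had 0.113, but so had general replicate 1 and HHH replicate 3. With 2 libraries a group the deviations mirror each other, so that the batch 1 value cannot show a pairing by number. Other alternatives were other scalings and filters, DESeq2 1.42.0, limma 3.58.1, removal of a GC trend, adding the counts of pseudogenes, each batch alone, and leaving out each library. Removal of length trends was added after the data had been seen. Promoters came from RefSeq (GRCh38.p14), with 37 of 50 members found. Protein sequences were not used here.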

Additional observations from a re-analysis of the deposited data

Results flagged for a closer look

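Among the 5 HHH libraries, each set against the general mean of its batch, 1 library stood apart from the other 4 in 6 of the 46 tested members by Dixon's test (51 sets tested with the medians of the members and complexes, critical value 0.71), where chance gives about 5% for a single set. In 5 of the 6 it was HHH batch 2 replicate 3, and always upwards. Its log2 difference from the general mean was 0.475 for UQCR11, a small subunit of complex III, 0.577 for COX5B and 0.505 for COX6A1 of complex IV, and 0.663 for ATP5F1E and 0.762 for ATP5ME of complex V. The sixth was ATP5MGL, where HHH batch 1 replicate 3 stood at −0.181, from a gene of at most 0.300 CPM. None of the medians of the members and complexes passed, with values of 0.497 to 0.582. The members were read in the same 5 libraries and are not independent, so that the 5% is no measure of the count of 6. These libraries also come from 2 batches. Groups of 2 or 3 libraries were not tested in this way.

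ATP5F1D, the delta subunit of the ATP synthase, had a change that differed between the batches, with a log2 value in batch 2 that was 0.883 below that in batch 1 (−0.883, edgeR's quasi-likelihood test, adjusted p = 0.0142). It was higher in both HHH libraries of batch 1 and lower in all 3 of batch 2.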

How the results depend on the processing

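No called gene changed sign under any alternative run. COX6B2 stayed called within batch 2 under all 26 alternatives (highest adjusted p 0.000610), and with batch as a term under 26 of 27, the exception being the fit without the batch term. With batch as a term 1 member was called, against 5 with no filter on low counts, 3 with DESeq2, 2 with a GC trend removed, 2 with the replicate block, 7 with block and GC, 6 with block, GC and length, 0 with no batch term, and 1 to 5 with a library left out (5 without HHH batch 1 replicate 3). Within batch 1 there was 1, against 2 with no filter and 0 with batch 1 alone, and 1 each time a library was left out. Within batch 2 there were 5, against 1 at an adjusted p under 0.01, 1 over 1.5-fold, 3 with upper quartile scaling, 1 with library size only, 23 with no filter, 3 with at least 1 CPM in 5 libraries, 15 with DESeq2, 3 with limma and voom, 13 with the block, 13 with block and GC, 10 with block, GC and length, and 1 with GC and length removed and HHH batch 2 replicate 3 left out. With a library left out it was 1 to 9, namely 1 without general batch 2 replicate 1 or 3 or HHH batch 2 replicate 3, 3 without either general library of batch 1, 8 without HHH batch 2 replicate 2, and 9 without either HHH library of batch 1. The difference between batches gave 1, against 0 at an adjusted p under 0.01, 3 with no filter, 2 with DESeq2, 0 with GC removed, 0 with block and GC, 0 with GC and length removed (with or without HHH batch 2 replicate 3), and 0 to 1 with a library left out. Of the assembly factors and regulators 1 was called, against 4 with DESeq2, 3 with the block and 0 to 6 with a library left out (6 without HHH batch 1 replicate 3). The block ended no call of a member with batch as a term or within batch 2. Within batch 1 the block set only 1 general against 1 HHH library. Removal of length trends was chosen after seeing the data. The cause of these shifts was not tested. Shares over all tested genes are given above for the main fits and, within batch 2, without HHH batch 2 replicate 3. Counts under the other settings have no such share beside them, and so say nothing of the members against other genes. With 2 or 3 libraries a group the SE of a member over 10 CPM was at most 0.135 on the log2 scale with batch as a term.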
